A study of Mus musculus with 52 samples.

Results

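The genes described here are the mouse histone genes of the 4 named clusters, taken as every protein-coding gene whose symbol begins with Hist1h, Hist2h, Hist3h or Hist4h. Of 38997 genes listed in at least 1 tissue, 59 met this rule. They comprised 6 genes of the linker histone H1, 14 of H2A, 16 of H2B, 10 of H3 and 13 of H4. In GRCm38, 51 of them lie on chromosome 13 (Hist1), 5 on chromosome 3 (Hist2), 2 on chromosome 11 (Hist3) and 1 on chromosome 6 (Hist4). The table of testes listed 51 of the 59, and 23 were listed in all 7 tissues.

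H2A, H2B, H3 and H4 form the protein core around which DNA is wound, and H1 binds the DNA that enters and leaves it. Most genes of these clusters are switched on when cells copy their DNA in S phase, and their mRNAs end in a short stem-loop instead of a poly(A) tail. Some members can also give polyadenylated transcripts in cells that have stopped dividing, and some serve a special cell, such as the germ cells of the testis, where histones are exchanged for variants and then largely for protamines. Other histone variants, such as H3f3b (H3.3) and H2afz (H2A.Z), lie outside the clusters and are made throughout the cell cycle from ordinary polyadenylated mRNAs.

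Bulk RNA was sequenced from male wild-type mice and from male mice homozygous for a deletion of Tug1 (Tug1-/-), a long noncoding RNA locus. In the deletion a lacZ cassette replaces the body of the gene, and the promoter and first exon stay in place. Heart, liver, spleen and eyes were from 3 samples per genotype, prostate from 3 wild-type and 2 Tug1-/- samples, and testes from 4 wild-type, 4 Tug1-/- and 3 rescue samples. MEFs, fibroblasts cultured from E14.5 littermate embryos and used at passage 2, were from 3 samples per genotype. Organs and MEFs came from a C57BL/6J/129S6 background at N3 to C57BL/6J that the labels give as without the neomycin cassette (no Neo). In testes the background was C57BL/6J/129S6 (C57BL/6J), wild type was labelled no Neo and the other groups Neo, LacZ, so that the cassette and the genotype cannot be told apart there. Rescue mice were Tug1-/- and carried tg(Tug1), an inducible Tug1 transgene, with CAGs-rtTA3, a broadly active driver, and were fed doxycycline. The labels give no ages of the mice.

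Each value below is the authors' mean of a group in TPM (a transcript abundance scaled to the library total and corrected for gene length), so levels of different genes can be set side by side. The tables give the mean of each group without its single samples. Their standard errors and p-values belong to the authors' own comparisons and were not used. The spread between mice or cultures therefore does not enter the values below, no test between groups was run, and no p is given, so "higher" and "lower" compare group means only. A log2 ratio is that of the group means after 0.1 TPM was added to each, and a gene entered a comparison with at least 1 TPM in either group. A gene was past the limit at a ratio of at least 1.5-fold. Outside testes, an approximate 95% interval from counting error alone was computed for each ratio. It leaves out the spread between samples and is the least error a ratio can have. In bulk samples, fewer cells of a type and less RNA per cell cannot be told apart. The depth, as the sum of mean normalized counts per library, was 38666994 to 48341823 outside testes and is unknown for testes.

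Tug1 itself, the check of the labels, stood at 10.1 to 57.5 TPM in the wild-type groups and at 0.00832 to 0.885 TPM in the Tug1-/- groups, and at 1.60 TPM in rescue testes. Defining markers of each tissue were high in it (Alb 97035 TPM in liver, Pbsn 65995 TPM in prostate, Prm1 14339 TPM in testes, wild type), except that the prostate markers Spink1 and Sbp stood at 5.39 and 1.64 TPM.

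The libraries were made from poly(A) RNA, whereas an mRNA that ends in a stem-loop has no tail, and the stem-loops are shown for that reason. How much of each member's mRNA the libraries captured was not tested. The 16-base motif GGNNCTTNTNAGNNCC, searched on the transcript strand, was present in an annotated transcript (GENCODE vM21, GRCm38) of 41 of the 59 members, in 8 versions. The most frequent 5 versions are printed with the loop in capitals and the paired arms in lower case.
Version of 21 members (3 H1, 6 H2A, 8 H2B, 4 H3), Hist1h1c, Hist1h2ab, Hist1h2bp and Hist1h3b among them: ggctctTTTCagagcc
Version of 7 members, all H4, Hist1h4h among them: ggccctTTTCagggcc
Version of 6 members (1 H1, 2 H2B, 3 H3), Hist1h1t among them: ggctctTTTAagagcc
Version of Hist1h4i and Hist2h4: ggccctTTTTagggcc
Version of Hist1h4b and Hist1h4j: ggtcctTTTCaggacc
In the H4 versions shown, the arms differ from those of the other classes, whereas the loop is shared by most members. No match says only that these letters are not in the annotated transcript, which for several members, such as Hist1h2aa and Hist1h4k, is short.

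The members fell into 3 kinds by where the annotation ends. In 22 members the transcript ran more than 100 bases past the stem-loop, by a median of 603 bases. In 19 members it ended within 100 bases, at a median of 33, and in 18 no stem-loop was found. The first kind held 9 of the 19 members that reached 10 TPM in any group, and 50.4% of the mean level summed over all members in the 7 wild-type groups. Hist1h1c, the linker histone H1.2, is of this kind, with 840 bases annotated after its stem-loop, and so are Hist1h4i (330 bases) and Hist3h2a (1643 bases). The short kind held 14.5% of that sum and the kind without stem-loop 35.1%, of which Hist1h2bc made up most. The median level over the 7 wild-type groups was 1.94 TPM for the extended kind, 1.07 TPM for the short kind and 0.639 TPM for members without stem-loop. The ranges overlap almost wholly, as the plot of level by 3' end shows. The kinds also differ in how much sequence they share with other genes, as given below.

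**Figure D1:**
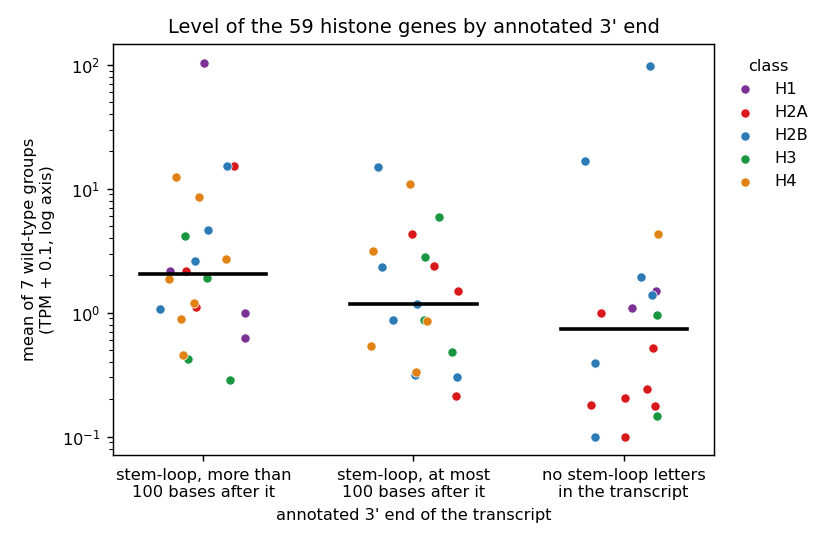
Mean TPM over the 7 wild-type groups (plus 0.1, log axis) of each of the 59 histone genes, grouped by the annotated 3' end and coloured by histone class; black bars are medians (1.94, 1.07 and 0.639 TPM before 0.1 is added). The highest points are Hist1h1c in the extended group and Hist1h2bc in the group without stem-loop.

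Members share much of their sequence with each other, and the authors counted uniquely mapped reads only. Of all 100-base windows of a member's annotated transcripts, a median of 31.8% also occurred in a transcript of another gene. The share was 0% in 6 members (among them Hist1h1a, Hist1h1b, Hist1h1t and Hist2h2be) and at least 50% in 20. By class the median was lowest for H1, at 0.396%, and highest for H2A, at 56.1%. The 11 members that stayed under 1 TPM in every group had a median of 79.3%, and the 48 others 29.1%, so low levels and shared sequence went together. By annotated 3' end the median was 14.6% for the extended kind, 40.1% for the short kind and 60.9% for members without stem-loop. This is the reverse of the order of their levels, so 3' end and shared sequence cannot be told apart there. Hist1h4m and Hist1h4n share 88.1% and 80.7% of their windows with each other, and their values are uncertain for that reason. The same limit holds for other members named below. Among them are Hist1h2bk (70.8% shared), Hist1h3i (68.6%), Hist1h4k (64.3%), Hist1h2ad (63.6%), Hist2h2ab (59.7%), Hist1h3b (56.6%) and Hist1h2ab (52.4%). Hist1h1e with Hist1h2be and Hist3h2a with Trim17 share sequence across neighbouring genes (21.7% and 29.8% of windows), and the library kit does not mark strand.

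The promoters of the members were compared with all mouse promoters. RefSeq promoters (GRCm38.p6, 250 bases before to 50 after the start) were matched to 54 members. CCAAT, searched on both strands as were the others, was present in all 42 matched promoters of H1, H2A, H2B and H3 genes and in 3 of 12 H4 promoters (25%), against 37.4% of 32851 promoters. At least 2 copies were present in 37 of the 54 members (68.5%) and in 11.7% of all promoters. The octamer ATTTGCAT was present in 7 of 14 H2A and 5 of 14 H2B promoters and in no promoter of H1, H3 or H4, against 1.74% of all. TATAAA was present in 34 of the 54 (63%) and in 13.6% of all promoters. On the gene's own strand and starting 40 to 20 bases before the start, it was present in 12 members (22.2%) and in 1.99% of all promoters. The motifs did not overlap each other in any member. In 8 pairs an H2A and an H2B gene on opposite strands share 220 to 279 bases of promoter, so that their motifs are counted in both.

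The 250 bases before the start are printed for 6 members that lead the results below: 3 of the leading genes of MEFs, the leading gene of testes, the testis gene Hist1h2ba, whose window overlaps that of Hist1h2aa, and an H4 promoter without CCAAT. Capitals mark matches of these 3 motifs on either strand.
Hist1h1c, chr13:23738557-23738806, plus strand: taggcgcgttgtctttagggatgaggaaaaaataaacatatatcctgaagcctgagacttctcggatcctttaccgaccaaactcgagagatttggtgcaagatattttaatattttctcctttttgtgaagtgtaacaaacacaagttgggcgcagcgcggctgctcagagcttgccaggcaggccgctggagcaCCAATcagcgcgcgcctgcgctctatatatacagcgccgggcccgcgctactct
Hist1h2ab, chr13:23750838-23751087, plus strand: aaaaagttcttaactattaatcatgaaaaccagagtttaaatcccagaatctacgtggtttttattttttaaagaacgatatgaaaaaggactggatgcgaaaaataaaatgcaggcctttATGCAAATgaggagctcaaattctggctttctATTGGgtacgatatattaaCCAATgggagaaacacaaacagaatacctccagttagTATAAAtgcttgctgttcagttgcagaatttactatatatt
Hist1h3b, chr13:23752095-23752344, plus strand: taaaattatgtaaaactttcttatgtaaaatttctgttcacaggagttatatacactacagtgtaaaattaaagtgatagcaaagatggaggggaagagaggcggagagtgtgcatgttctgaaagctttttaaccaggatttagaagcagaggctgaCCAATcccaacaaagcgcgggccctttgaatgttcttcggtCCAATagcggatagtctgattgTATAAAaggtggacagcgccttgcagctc
Hist1h2bp, chr13:21787238-21787487, plus strand: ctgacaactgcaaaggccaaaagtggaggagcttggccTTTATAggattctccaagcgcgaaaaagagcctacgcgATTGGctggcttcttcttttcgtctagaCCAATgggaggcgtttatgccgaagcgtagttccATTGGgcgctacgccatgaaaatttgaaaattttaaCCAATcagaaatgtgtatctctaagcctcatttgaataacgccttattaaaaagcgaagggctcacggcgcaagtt
Hist1h2ba, chr13:23934157-23934406, minus strand: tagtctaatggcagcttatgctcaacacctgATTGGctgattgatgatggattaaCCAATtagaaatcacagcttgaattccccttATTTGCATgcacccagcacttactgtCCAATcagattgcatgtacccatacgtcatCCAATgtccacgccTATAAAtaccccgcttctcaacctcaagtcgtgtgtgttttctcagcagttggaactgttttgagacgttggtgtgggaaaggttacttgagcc
Hist1h4i, chr13:22041363-22041612, minus strand: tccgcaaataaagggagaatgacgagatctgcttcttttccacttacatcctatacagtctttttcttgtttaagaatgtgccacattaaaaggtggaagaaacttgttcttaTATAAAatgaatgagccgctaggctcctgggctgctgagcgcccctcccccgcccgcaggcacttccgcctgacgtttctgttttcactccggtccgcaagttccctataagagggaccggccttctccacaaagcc
Hist1h2bp and Hist1h2ba hold 4 copies of CCAAT each, Hist1h2ab and Hist1h3b 2, Hist1h1c 1 and Hist1h4i 0. The octamer stands in Hist1h2ab and Hist1h2ba, which are high in different samples (MEFs and testes).

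In the wild-type groups, 2 genes led the histone signal outside testes. Hist1h1c stood at 109 TPM in heart, 35.9 TPM in liver, 68.6 TPM in spleen, 188 TPM in eyes, 106 TPM in prostate and 210 TPM in MEFs, and at 11.7 TPM in testes. Hist1h2bc, an H2B gene, stood at 65.6 TPM in heart, 153 TPM in liver, 32.8 TPM in spleen, 159 TPM in eyes, 72.9 TPM in prostate and 186 TPM in MEFs, and at 15.1 TPM in testes. They ranked first and second among the members in each of the 6 tissues other than testes, with Hist1h2bc ahead only in liver, where it made up 75.8% of the summed histone TPM. Among these 6 tissues their shares were smallest together in spleen, where Hist1h1c made up 29.5% and Hist1h2bc 14.1% of the sum. Testes had the lowest mean of all 7 tissues for both.

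The next members were broadly measured too. Hist2h2be, an H2B gene whose annotated transcript has no shared window, ranged from 1.77 TPM in liver to 33.5 TPM in eyes. Hist3h2a, an H2A gene, ranged from 1.10 TPM in liver to 57 TPM in eyes. Hist1h4i and Hist1h4h, both H4 genes, ranged from 1.93 TPM in testes to 27.1 TPM in eyes and from 2.01 TPM in liver to 31.7 TPM in heart. With Hist1h1c and Hist1h2bc these are the 6 members with at least 1 TPM in all 7 tissues.

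Other members were high in a single tissue. Hist3h2ba, an H2B gene next to Hist3h2a, stood at 88.2 TPM in eyes, 13.4 TPM in spleen and at most 2.28 TPM in the other wild-type groups that listed it. In MEFs the third and the fourth member were Hist1h3b, an H3 gene, at 39.3 TPM and Hist1h2ab, an H2A gene, at 28.4 TPM. Neither was listed in heart, liver or prostate, and neither reached 1 TPM in spleen, eyes or testes. MEFs and eyes had the highest summed level of all members, at 585.3 and 686.8 TPM, against 201.5 to 306.8 TPM in the other tissues.

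Testes had an order of their own. Hist1h2bp, an H2B gene, led with 102 TPM and made up 33.4% of the histone sum, followed by Hist1h4a at 54.7 TPM, Hist2h2be at 29.0 TPM and Hist1h3a at 16.7 TPM. Outside testes, Hist1h2bp stayed under 1 TPM in every wild-type group and Hist1h4a reached 1 TPM in MEFs only, at 3.37 TPM. The testis histones Hist1h2ba (13 TPM), Hist1h2aa (5.89 TPM) and Hist1h1t (5.79 TPM), which replace other histones in germ cells, reached 1 TPM in no other tissue. Hist1h1a, an H1 gene known from spermatogonia, stood at 4.64 TPM in testes and at 2.80 TPM in eyes. The spermatid linker histones Hils1 and H1fnt, outside the clusters, were far higher, at 1497 and 1242 TPM.

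**Figure D2:**
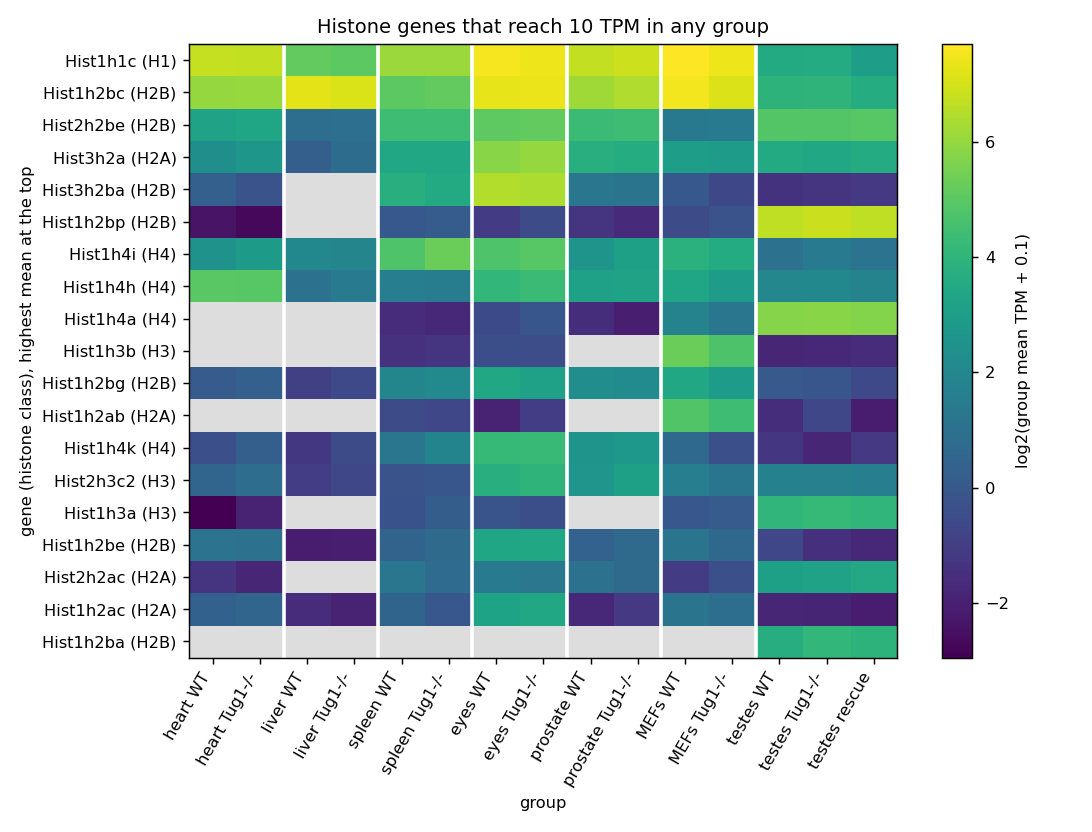
Heat map of log2(group mean TPM + 0.1) for the 19 histone genes that reach 10 TPM in any of the 15 groups, ordered from the highest mean over the wild-type groups; grey cells are genes not listed in that tissue. Hist1h1c and Hist1h2bc have their lowest wild-type mean in testes, whereas Hist1h2bp, Hist1h4a, Hist1h3a and Hist1h2ba have their highest wild-type mean there.

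The comparison of Tug1-/- with wild type asked in which tissues loss of the locus changed gene expression. Among histone genes the MEFs stood out by direction. Of 32 members at the minimum, 26 had a lower mean in Tug1-/- MEFs and 6 a higher mean, whereas 40.4% of all genes had a lower mean there. The median log2 ratio of the members was -0.38, and that of all genes 0.05. The summed level of all members was 585.3 TPM in the wild-type and 466.2 TPM in the Tug1-/- MEFs, a log2 ratio of -0.33. Counting intervals lay wholly below 0 for 12 of the 32 members and above 0 for none, against 21.8% and 37.1% of all genes.

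Most differences in MEFs were smaller than 1.5-fold. Of the 32 members, 3 were lower past the limit and 1 was higher, against 3.91% and 3.82% of all genes. These counts are too small to set apart from the background, and only 1 of the lower members had a counting interval without 0. Relative to the median of all genes, 7 were lower and 1 was higher past the limit, against 4.57% and 3.34% of all genes. Hist1h2ad, an H2A gene, stood at 6.41 TPM in the wild-type and 3.88 TPM in the Tug1-/- group, with a log2 ratio of -0.71 and a counting interval of -1.14 to -0.27. Of its windows, 63.6% also occur in other genes, so its value is uncertain beyond that interval. Hist1h4k (1.52 and 0.677 TPM), Hist1h4d (1.37 and 0.844 TPM) and Hist1h2bk (0.679 and 1.12 TPM) were also past the limit, but their counting intervals included 0.

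All members of at least 5 TPM in either group had a lower mean. Hist1h1c stood at 210 TPM in the wild-type and 174 TPM in the Tug1-/- MEFs, a log2 ratio of -0.27 (counting interval -0.31 to -0.22). Hist1h2bc stood at 186 and 143 TPM, a log2 ratio of -0.38 (-0.43 to -0.33). Hist1h3b stood at 39.3 and 26.2 TPM, a log2 ratio of -0.58 (-0.74 to -0.42). Hist1h2ab stood at 28.4 and 21.3 TPM, a log2 ratio of -0.41 (-0.63 to -0.20). The lower means thus included H1, H2A, H2B and H3 genes, as well as H4 genes such as Hist1h4i, and were not carried by 1 member. All members were measured in the same cultures and are not replicates of each other. Group means cannot show whether a single culture carried the lower levels.

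By class, 4 of 4 H1, 4 of 5 H2A, 7 of 10 H2B, 4 of 6 H3 and 7 of 7 H4 members had a lower mean in Tug1-/- MEFs. The class medians lay between -0.22 for H3 and -0.49 for H4. The relation of the promoter motifs to these ratios was not tested. By 3' end, 14 of 15 extended members, 8 of 11 short members and 4 of 6 without stem-loop were lower, with medians of -0.39, -0.39 and -0.21. Of members with at least 50% of their windows shared with other genes, 7 of 9 were lower, and of the others 19 of 23. The part of shared sequence in these ratios was not tested.

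Genes that mark dividing cells went the other way in the same MEFs. Of 16 genes of S phase and cycling cells, 14 had a higher mean in Tug1-/- MEFs, with a median log2 ratio of 0.32, though none was past the limit. Rrm2, a subunit of the enzyme that makes DNA precursors, stood at 120 TPM in the wild-type and 159 TPM in the Tug1-/- group. Pcna, the sliding clamp of DNA polymerase, stood at 110 and 130 TPM, and Mcm3, of the replicative helicase, at 45.5 and 61.9 TPM. The proliferation marker Mki67 was an exception, at 56.4 and 52.0 TPM.

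Most other genes of histone supply had a higher mean, as did most genes in MEFs, where 40.4% of all had a lower one and the median was 0.05. Among histone variants outside the clusters, 7 of 9 core variants had a higher mean, with a median log2 ratio of 0.19, and H3f3b stood at 446 and 460 TPM and H2afz at 218 and 244 TPM. Among factors of histone mRNA synthesis and processing, 9 of 11 were higher (median 0.18). Slbp, which binds the stem-loop, stood at 17.4 TPM in the wild-type and 20.6 TPM in the Tug1-/- group. Among 12 histone chaperones, 11 were higher (median 0.24), and Atrx, which works with Daxx to deposit H3.3, was lower past the limit, at 28.5 and 18.0 TPM. The linker histone variant H1f0 stood at 140 and 136 TPM.

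Macrophage markers were present in the MEF cultures and differed between the groups. Of 9 markers, 3 were higher and 1 was lower past the limit in Tug1-/- MEFs, and their summed level was 626.2 TPM in the wild-type and 714.7 TPM in the Tug1-/- group. Counted without the limit, 6 of the 9 had a lower mean, with a median log2 ratio of -0.38, so the median and the sum differ in sign. Lyz2 stood at 183 and 342 TPM, C1qa at 132 and 99.7 TPM and Marco, a scavenger receptor of macrophages, at 0.0247 and 26.7 TPM. Erythroid, B cell and neutrophil markers did not reach 1 TPM. The part of cell composition in the lower histone levels was not tested.

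**Figure D3:**
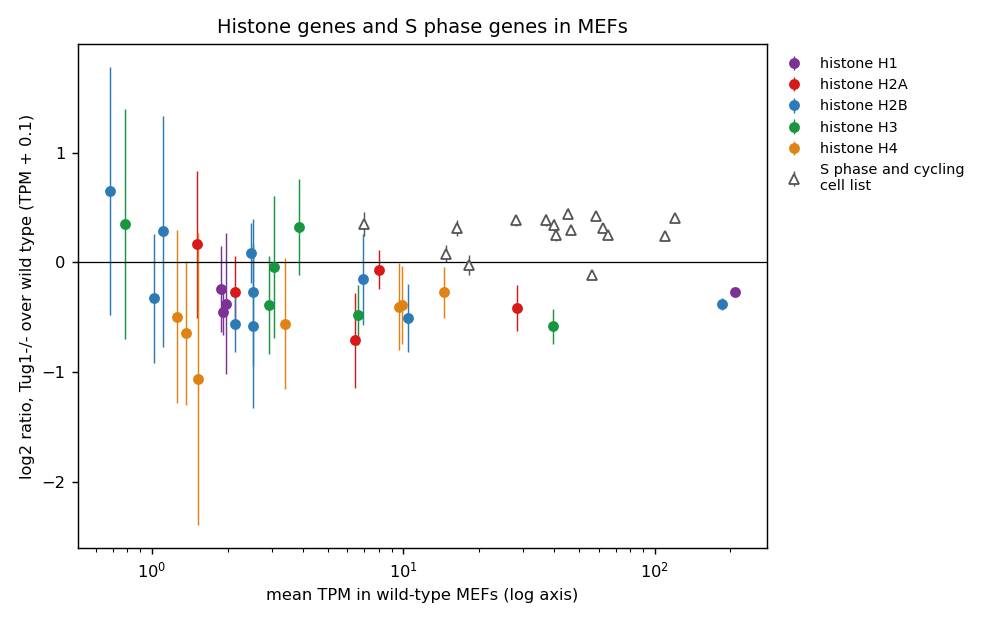
Log2 ratio of Tug1-/- over wild-type MEFs against mean TPM in wild type (log axis) for the 32 histone genes of at least 1 TPM, coloured by class, and for the 16 genes of the S phase and cycling cell list (triangles); bars are approximate 95% intervals from counting error alone. Of the histone genes 26 lie below 0, and of the S phase list 14 lie above.

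Across the 9 comparisons, the median of the members in MEFs was the farthest from that of all genes. The difference between the medians was -0.42 there and between -0.13 and 0.22 in the other 8 comparisons.

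**Figure D4:**
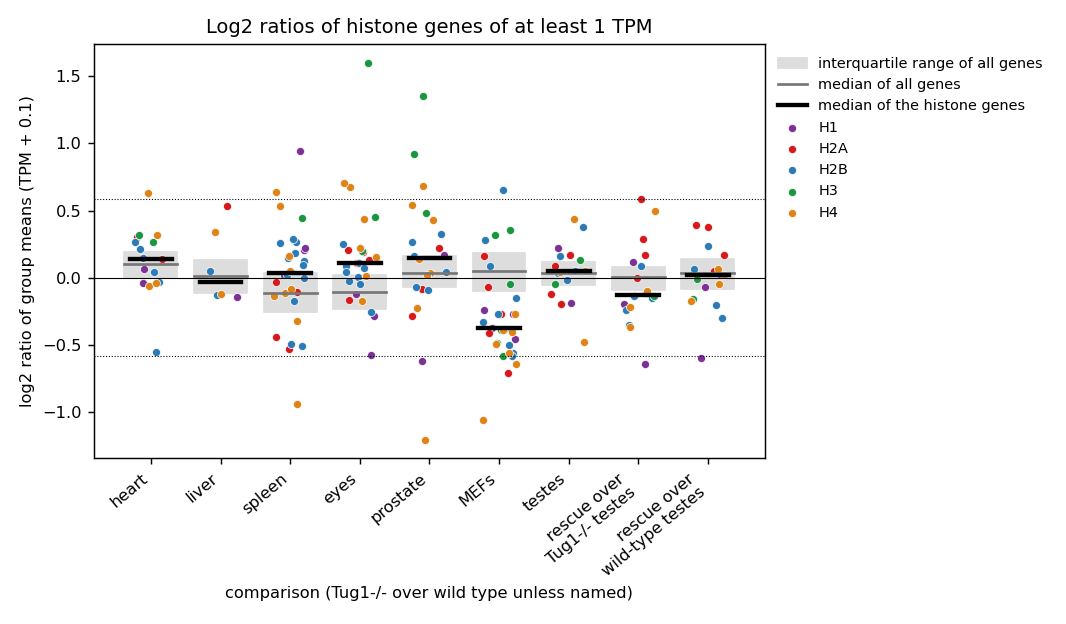
Log2 ratio of each histone gene of at least 1 TPM in the 9 comparisons, coloured by class, with the median of the histone genes (black bar) over the median (grey line) and interquartile range (grey box) of all genes; dotted lines mark 1.5-fold. The histone genes lie mainly below 0 in MEFs, with a median of -0.38.

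In spleen, 30 members were at the minimum, of which 17 had a higher and 13 a lower mean in Tug1-/- mice, with a median of 0.03. Most genes were lower there, 70.2% of all, with a median of -0.11. Past the limit, 2 members were higher and 1 was lower (background 5.40% and 5.07%). Hist1h1b, the linker histone H1.5, stood at 1.81 TPM in the wild-type and 3.58 TPM in the Tug1-/- group, with a log2 ratio of 0.94 and a counting interval of 0.50 to 1.39. Hist1h4k stood at 2.24 and 3.53 TPM, with an interval that included 0 (-0.01 to 1.28). Hist1h4n stood at 2.98 and 1.5 TPM, a log2 ratio of -0.94 (-1.59 to -0.30), and shares most of its windows with Hist1h4m, which stood at 6.46 and 5.88 TPM. Hist1h4i, just under the limit, stood at 27.0 and 39.3 TPM, a log2 ratio of 0.54 (0.41 to 0.66).

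Several lists of cell markers differed between the same spleen groups. All 16 S phase genes had a higher mean in Tug1-/- spleen, 9 of them past the limit, with a median log2 ratio of 0.73, and Mki67 stood at 117 TPM in the wild-type and 233 TPM in the Tug1-/- group. All 10 erythroid genes were higher past the limit (median 1.05, summed level 25540 and 46197 TPM), as were 7 of 8 neutrophil genes (median 1.44, 1684 and 3425 TPM). All 8 B cell genes were lower (median -0.38, 5526 and 4167 TPM), as were all 9 macrophage genes (median -0.06, 7868 and 7386 TPM), none past the limit. Of all genes 70.2% were lower there with a median of -0.11, so the macrophage genes did not fall below the background. The part of these shifts in the levels of Hist1h1b and Hist1h4i was not tested. Hist1h1c and Hist1h2bc, the leading members, differed little, at 68.6 and 69.4 TPM and at 32.8 and 35.7 TPM.

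In eyes, 29 members were at the minimum and 21 had a higher mean in Tug1-/- mice, while 72.3% of all genes had a lower mean. The median log2 ratio was 0.11 for the members and -0.11 for all genes. Past the limit, 3 members were higher and none was lower (background 3.19% and 4.68%). Hist4h4, an H4 gene, stood at 0.963 TPM in the wild-type and 1.63 TPM in the Tug1-/- group, a log2 ratio of 0.70 (counting interval 0.37 to 1.04). Hist1h4j stood at 1.27 and 2.09 TPM (0.12 to 1.24) and Hist1h3i at 0.299 and 1.11 TPM (0.20 to 3.0). All 3 are low genes. The eye-rich pair Hist3h2a and Hist3h2ba stood at 57 and 65.7 TPM and at 88.2 and 85.4 TPM.

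Blood cell markers differed in eyes too. All 5 erythroid genes at the minimum were higher past the limit in Tug1-/- eyes (median 1.49, summed level 700.8 and 2181 TPM), and of 4 neutrophil genes 3 were higher and 1 was lower past the limit (13.1 and 28.2 TPM). All 8 macrophage genes were higher (median 0.38, 898.0 and 1156 TPM), none past the limit, whereas all 15 S phase genes were lower (median -0.19) and none past the limit. Core histone variants outside the clusters were lower in 8 of 9 cases, with a median of -0.13 near that of all genes, and H3f3b stood at 616 and 476 TPM. Their part in the histone levels was not tested.

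In prostate, 22 members were at the minimum and 15 had a higher mean in Tug1-/- mice, against 41.2% of all genes with a lower mean. The medians were 0.15 for the members and 0.04 for all genes. Past the limit, 3 members were higher and 2 were lower (background 5.32% and 2.67%). Hist1h3d, an H3 gene, stood at 0.644 TPM in the wild-type and 1.80 TPM in the Tug1-/- group, a log2 ratio of 1.36 (counting interval 0.73 to 1.98). Hist1h4d stood at 2.46 and 1.01 TPM, a log2 ratio of -1.20 (-1.78 to -0.63). The intervals of Hist1h3i (0.817 and 1.64 TPM), Hist1h4n (1.15 and 1.91 TPM) and Hist1h1b (1.21 and 0.757 TPM) included 0. Macrophage markers were higher in all 8 cases, 6 of them past the limit (summed level 277.1 and 433.3 TPM), as were 4 of 5 erythroid genes (median 0.72, 162.5 and 293.5 TPM). Their part in the histone levels was not tested, and the Tug1-/- group held 2 samples only.

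Heart and liver held few members. In heart, 16 were at the minimum, 11 of them higher and 5 lower, with a median of 0.14 against 0.10 for all genes, of which 25.2% were lower. Hist1h4k alone was past the limit, higher, at 0.681 and 1.11 TPM with an interval that included 0 (background 2.08% higher and 2.49% lower). Relative to the median of all genes it was no longer past the limit, and Hist3h2ba (1.15 and 0.752 TPM), whose interval also included 0, was lower past it. In liver, 6 were at the minimum, 3 lower and 3 higher, none past the limit (background 3.37% and 2.65%, and 47.3% with any lower mean). Hist3h2a came closest, at 1.10 and 1.64 TPM, a log2 ratio of 0.53 (0.21 to 0.86). Hist1h2bc, the leading member of liver, stood at 153 TPM in the wild-type and 140 TPM in the Tug1-/- group, a log2 ratio of -0.13 (-0.17 to -0.09). In heart Hist1h1c stood at 109 and 106 TPM, a ratio within its counting error of 0 (-0.08 to 0.00). In heart 6 of 7 B cell genes were lower past the limit (median -1.11, summed level 52.1 and 25.9 TPM), all 7 erythroid genes were lower (median -0.33) and all 8 macrophage genes higher (median 0.36), none of these past it. In liver all 9 macrophage genes were higher, 3 of them past the limit (median 0.55, 308.5 and 486.0 TPM), and 2 of 3 neutrophil genes were higher past it (median 0.69). Their part in the histone levels was not tested.

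No member was past 1.5-fold in the same direction in 3 tissues, and members that were past it in a pair of tissues had at most 3.53 TPM there (Hist1h4k higher in heart and spleen, Hist1h3i higher in eyes and prostate, Hist1h4d lower in prostate and MEFs). The counting intervals of Hist1h4k in both tissues, Hist1h3i in prostate and Hist1h4d in MEFs included 0. The share of all genes past the limit in a pair of tissues was not computed, so these pairs cannot be set against a background. At the smaller limit of a ratio of 5 to 4, 2 of the 27 members at the minimum in at least 3 tissues pointed the same way in 3 of the 7 comparisons. The share over all genes under the same rule was 5.89%, so this count is near the background. Hist1h4i had a higher mean in Tug1-/- spleen, prostate (5.76 and 8.41 TPM) and testes (1.93 and 2.65 TPM). Under that limit its mean was higher in heart (5.66 and 7.10 TPM) and eyes (27.1 and 30.2 TPM) and lower in liver (3.93 and 3.62 TPM) and MEFs (14.6 and 12.1 TPM). Hist1h1b, which was higher in spleen, was lower in Tug1-/- eyes (1.34 and 0.870 TPM), prostate and MEFs (1.96 and 1.49 TPM), with counting intervals that included 0 in these 3.

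In testes, 18 members were at the minimum and none was past the limit in Tug1-/- against wild type (background 2.75% higher and 3.51% lower). Of the 18, 12 had a higher and 6 a lower mean, with a median of 0.05 against 0.03 for all genes, of which 38.3% were lower. Hist1h2bp stood at 102 TPM in wild-type, 114 TPM in Tug1-/- and 104 TPM in rescue testes. Hist1h4a stood at 54.7, 56.7 and 53.0 TPM in the same order, and Hist1h3a at 16.7, 18.3 and 16.6 TPM. In each of these genes the Tug1-/- mean was the highest of the 3, by at most 0.16 on the log2 scale over wild type. Hist2h2be, the third in level, went the other way, at 29.0, 28.6 and 30.3 TPM, with the lowest mean in Tug1-/- testes.

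The testis histones lay somewhat farther from wild type. Hist1h2ba, a testis H2B, stood at 13 TPM in wild-type, 16.9 TPM in Tug1-/- and 15.3 TPM in rescue testes, and Hist1h2aa, the H2A gene that shares its promoter window, at 5.89, 6.66 and 6.65 TPM. Hist1h1t, the linker histone of meiotic cells, stood at 5.79, 6.79 and 5.93 TPM, and Hist1h1a at 4.64, 4.06 and 4.42 TPM. For 3 of these 4 the Tug1-/- mean was above wild type, with log2 ratios of 0.17 to 0.38, and for Hist1h1a it was below, at -0.19. The members farthest from a ratio of 1 were Hist1h4c, at 3.81, 2.70 and 3.86 TPM, and Hist1h4i, at 1.93, 2.65 and 2.03 TPM. These are group means with no error set beside them, since the depth of the testes table is unknown and the authors' own standard errors were not used.

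Among germ cell markers, those of meiotic and later cells differed by small amounts in the same testes. All 9 spermatocyte genes had a higher mean in Tug1-/- testes (median log2 ratio 0.09) and 9 of 10 late spermatid genes a lower mean (median -0.11), none past the limit. Of 8 spermatogonia genes, 6 had a higher mean (median 0.10), and Gfra1, a receptor of spermatogonial stem cells, was lower past the limit, at 11.1 TPM in wild-type, 3.84 TPM in Tug1-/- and 4.0 TPM in rescue testes. Hils1 stood at 1497 and 1523 TPM and H1fnt at 1242 and 1225 TPM. Of the erythroid genes at the minimum, 4 of 7 were lower past the limit, all of them globins (Hbb-bs 16.6 and 9.18 TPM), with a median of -0.84 over the 7. Of 2 neutrophil genes, Ltf was higher past the limit, at 3.46 TPM in wild-type, 30.9 TPM in Tug1-/- and 0.0316 TPM in rescue testes. All 9 macrophage genes were higher, none past the limit (median 0.34), and Insl3, a hormone of Leydig cells, stood at 56.9 TPM in wild-type, 143.8 TPM in Tug1-/- and 65.5 TPM in rescue testes. The part of cell composition in the histone levels was not tested.

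Rescue testes were compared with both other groups, which asks whether a Tug1 transgene moves levels back, and the 2 comparisons share the rescue samples. The transgene, its driver and the doxycycline feed came together in the rescue mice, so their effects cannot be told apart. Against Tug1-/-, 12 of 18 members had a lower and 6 a higher mean, with a median of -0.12 against 0.01 for all genes, of which 47.5% were lower. Past the limit, 1 member was higher and 1 was lower (background 1.42% and 3.22%). Against wild type, 10 were higher and 8 lower, with a median of 0.02 against 0.04 for all genes, of which 40.1% were lower, and 1 was lower past the limit (background 2.79% higher and 5.14% lower). Hist1h1c stood at 11.7 TPM in wild-type, 12.1 TPM in Tug1-/- and 7.72 TPM in rescue testes, so that its rescue mean lay below both others, with log2 ratios of -0.64 and -0.59. Hist2h2ab, an H2A gene, stood at 2.05, 1.78 and 2.72 TPM, and its rescue mean lay above both others, with log2 ratios of 0.59 (no longer past the limit relative to the median of all genes) and 0.39. Hist1h2bc stood at 15.1, 15.7 and 12.3 TPM. Of the cell markers, 3 of 9 macrophage genes were higher past the limit in rescue against wild-type testes (median 0.31), and of 7 erythroid genes 4 were lower and 1 was higher past it (median -0.74). Their part in the histone levels was not tested. The summed level of all members was 306.8 TPM in wild-type, 326.0 TPM in Tug1-/- and 305.1 TPM in rescue testes.

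**Figure D5:**
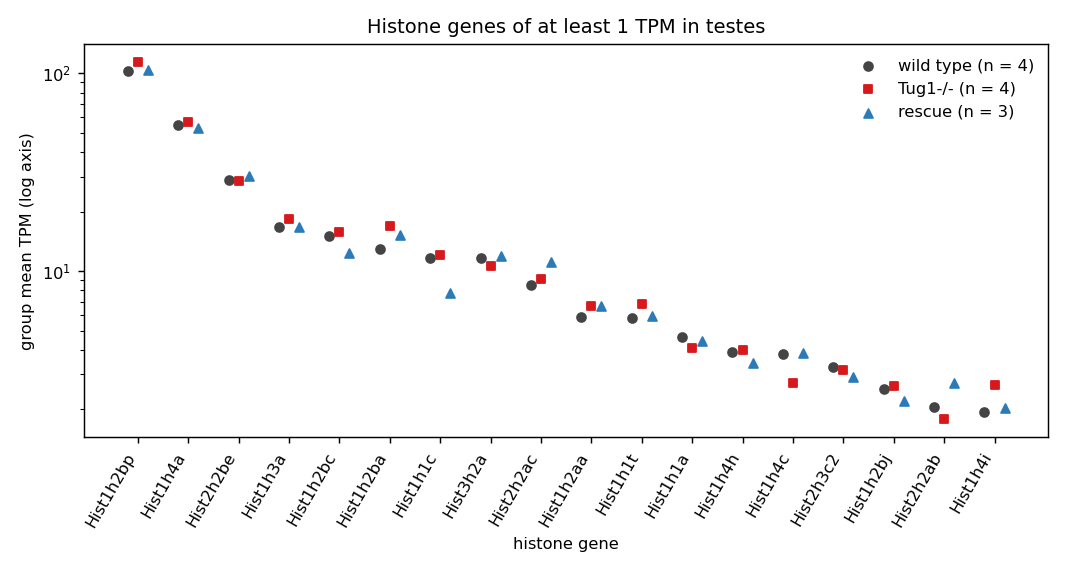
Group mean TPM (log axis) of the 18 histone genes of at least 1 TPM in testes of 4 wild-type, 4 Tug1-/- and 3 rescue samples; no error bars are drawn because only group means were used. Hist1h2bp leads at 102 to 114 TPM, and the rescue mean of Hist1h1c lies apart at 7.72 TPM.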

How the data were processed

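Paired reads came from TruSeq v2 libraries of organs, MEFs and testes. The authors aligned reads with STAR to GRCm38/mm10 (GENCODE vM16), used featureCounts for uniquely mapped reads, dropped genes under 3 reads in every replicate, and fitted DESeq2. The labels also name CASAVA 1.8.2. Whether the reads of a pair were counted separately is not given in the sources used here; if they were, the counting intervals are too narrow. The deposited tables give TPM as the authors' mean of each group. The deposited table of 6 tissues also gives, as a signal that the authors scaled with DESeq2, the mean normalized count per gene over both genotypes. The 18 columns of the authors' own comparisons (fold changes, standard errors, statistics, p-values, calls) were not used. Brain values and 6 F1 hybrid testes samples were not analysed here.

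From these, with Python 3.11.15, numpy 2.4.6 and pandas 2.3.3, log2 ratios were computed after adding 0.1 TPM, for genes of at least 1 TPM in either group, as were sums and medians; a gene not listed in a tissue counted as 0 in sums and in means over tissues. The planned comparison has no test, since the TPM values are group means. Counting intervals split the mean normalized count, times the number of samples, by the group means. Windows of 100 bases came from GENCODE vM21 transcripts, matched by gene ID for all 59 members; promoters came from RefSeq. The ratio, the minimum, the fold limit and the counting interval were tested on simulated MEF counts with counting error alone. The other steps were not tested in this way.

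The members, lists and named genes were chosen with earlier results of these data known. Named are the 10 members of highest mean over wild-type groups, the 2 highest per wild-type group, up to 6 per comparison past 1.5-fold with the largest ratio, those with a ratio of at least 5 to 4 the same way in at least 3 of 7 comparisons, the testis members Hist1h1t, Hist1h2ba, Hist1h2aa and Hist1h1a, and Tug1. Other members, such as Hist1h2ab, Hist1h4c and Hist2h4, were named after their values were seen.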

Additional observations from a re-analysis of the deposited data

How the results depend on the processing

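No paired analysis was possible because the TPM values are group means without single samples. For the same reason no replicate could be left out, and testes, whose depth is unknown, have no counting interval. In MEFs the summed histone level stayed lower under every alternative run, with log2 ratios of -0.38 to -0.33. The median there stayed below 0 as well, at -0.27 with a minimum of 0.5 TPM, with no minimum and with 1 TPM added. Of 78 recomputed counts past the limit, 52 moved by over 1.5 times, so these counts depend on the settings. The counts follow in the order heart, liver, spleen, eyes, prostate, MEFs, testes, rescue against Tug1-/- and rescue against wild type, and were 1, 0, 3, 3, 5, 4, 0, 2 and 1 as reported. They became 3, 1, 6, 7, 8, 7, 5, 5 and 4 with a minimum of 0.5 TPM and 5, 4, 9, 11, 9, 10, 12, 17 and 10 with none. A ratio of 5 to 4 as the limit gave 2, 2, 9, 6, 9, 20, 3, 5 and 3. With a minimum of 5 TPM, heart, spleen, eyes and prostate held 0, and MEFs and rescue against Tug1-/- 1. At 2-fold, heart, spleen and both rescue comparisons held 0, eyes and MEFs 1 and prostate 2. With 1 TPM added, heart and rescue against wild type held 0, eyes and rescue against Tug1-/- 1, and prostate and MEFs 2. With 0.01 TPM added, heart held 2. Requiring a counting interval without 0 left 0 in heart, 2 in prostate and 1 in MEFs. Relative to the median of all genes, MEFs held 8 and rescue against Tug1-/- 1, heart held 1 lower in place of 1 higher, the medians of heart, spleen and eyes were 0.040, 0.14 and 0.22, and their summed log2 ratios -0.083, 0.21 and 0.14. The liver median, of few members, was 0.32 with a minimum of 0.5 TPM and -0.14 with 5 TPM, and the prostate median 0.0019 with none. Without its highest member, 14 of 45 summed ratios of a histone class changed sign, none of them in MEFs. Those at least 0.1 from 0 on both sides turned to -0.11 (H3, liver) and -0.26 (H1, prostate). Apart from the filters themselves, the cause was not tested. Depth limits low genes most, and shared sequence limits those of near-identical copies.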
